A study of Homo sapiens with 16 samples.

Results

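The transcripts of 10 heat shock proteins were followed through 16 RNA-seq libraries of human myeloma cell lines. The members were HSPA1A, HSPA1B and HSPA8 of the HSP70 family, HSPH1, DNAJB1, HSP90AA1 and HSP90AB1, the small heat shock proteins HSPB1 and HSPB8, and mitochondrial HSPD1. They were taken by symbol from the deposited gene table, where all 10 names had a row, among 23459 rows in all and 18456 with a value above 0 in at least 1 library. The libraries came from 4 backgrounds. MM.1s, RPMI8226 and KMS18 carried no overexpression, and the fourth background was RPMI8226 overexpressing Mcl1, a protein that blocks apoptosis, called the Mcl1 line here. Each background was transfected with the empty vector pLK0.1 (Vec) or with a short hairpin RNA (shRNA) against Gapdh, as a control, or against CD28 or CD86. There was 1 library for each of the 16 combinations and no untransfected sample. The Mcl1 line is 1 derived line, and the promoter that drives Mcl1 in it is not given in the sources used here.

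Heat shock proteins are chaperones, which hold, fold or refold other proteins. HSP70 proteins bind unfolded stretches in cycles of ATP hydrolysis that HSP40 proteins such as DNAJB1 start and HSP110 proteins such as HSPH1 help to end, while HSP90 acts later on nearly folded clients. Small heat shock proteins bind unfolding proteins without ATP, and HSPD1 forms the folding chamber of the mitochondrial matrix with its cap HSPE1. Many of these genes are driven by the transcription factor HSF1, which binds repeated heat shock units in promoters. Plasma cells and myeloma cells make large amounts of antibody protein, and several chaperones have been studied as drug targets in myeloma.

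Expression was given as FPKM, a read count divided by the gene's exon length and the total of the library. Reads in genes came to 3914513 to 5900955 per library, and the members took 0.432% to 0.761% of them. In each background the CD28 hairpin had the fewest reads. The targeted genes were below Vec under their own hairpin in every background: CD28 at 65.1% to 79.3% of Vec, CD86 at 44.1% to 76.3% and GAPDH at 10.7% to 53.0%. CD86, a low transcript at 1.10 to 12.3 FPKM, was at 125% to 282% of Vec under CD28 shRNA. Under Gapdh shRNA it was at 94.1% to 203%. MCL1 with Vec was 127 FPKM in the Mcl1 line against 51.2 in RPMI8226, 82.0 in KMS18 and 115 in MM.1s. In MM.1s it reached 145 FPKM, with CD86 shRNA. The 8 plasma cell markers summed to 631 to 1887 FPKM, and all but SLAMF7 (0 to 0.976 FPKM in the Mcl1 line) were above 1 FPKM in every library. Lists of 4 T cell, 4 myeloid and 4 stromal genes summed to at most 7.40, 3.54 and 0.841 FPKM, with CD3D and COL3A1 at 0 in all libraries. Of 3 epithelial genes, EPCAM was 56.6 to 231 FPKM in RPMI8226, KMS18 and the Mcl1 line and 0 in MM.1s. The others were KRT18, at 32.7 to 97.9 FPKM in RPMI8226 and the Mcl1 line, and KRT8, at 1.09 to 4.24 there. Both were at most 0.591 FPKM in MM.1s and KMS18. In bulk RNA, fewer cells that express a gene and less of its RNA per cell cannot be told apart.

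HSPA1A and HSPA1B were close to absent in KMS18, where HSP90AA1 was highest. HSPB8 was low or absent outside the Mcl1 line, and HSPA8 and DNAJB1 had the lowest estimates under CD86 shRNA. HSPA1A, HSPA1B and HSPB8 also share letters described below. Promoter sequences of these 6 members are shown. Each is the 250 bases before a RefSeq start site (GRCh38.p14), 5′ to 3′ on the strand of the gene. Capitals mark pairs of heat shock units, that is GAANNTTC or TTCNNGAA.
HSPA1A, chr6:31815293-31815542, + strand: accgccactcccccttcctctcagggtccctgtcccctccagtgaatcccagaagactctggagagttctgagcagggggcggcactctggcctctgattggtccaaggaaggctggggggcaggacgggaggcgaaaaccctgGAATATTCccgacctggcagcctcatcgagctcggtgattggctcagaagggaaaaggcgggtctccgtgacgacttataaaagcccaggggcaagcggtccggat
HSPA1B, chr6:31827488-31827737, + strand: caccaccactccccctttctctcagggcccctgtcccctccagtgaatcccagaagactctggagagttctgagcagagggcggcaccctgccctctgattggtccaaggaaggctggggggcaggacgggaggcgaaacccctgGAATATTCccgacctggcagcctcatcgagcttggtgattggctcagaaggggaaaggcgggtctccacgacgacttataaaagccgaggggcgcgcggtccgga
HSPB8, chr12:119178681-119178930, + strand: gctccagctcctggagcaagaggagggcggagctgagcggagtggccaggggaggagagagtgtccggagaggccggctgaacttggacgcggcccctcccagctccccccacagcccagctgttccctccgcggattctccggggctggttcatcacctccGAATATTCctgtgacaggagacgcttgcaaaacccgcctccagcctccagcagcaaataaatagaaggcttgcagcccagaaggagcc
HSPA8, chr11:123062137-123062386, - strand: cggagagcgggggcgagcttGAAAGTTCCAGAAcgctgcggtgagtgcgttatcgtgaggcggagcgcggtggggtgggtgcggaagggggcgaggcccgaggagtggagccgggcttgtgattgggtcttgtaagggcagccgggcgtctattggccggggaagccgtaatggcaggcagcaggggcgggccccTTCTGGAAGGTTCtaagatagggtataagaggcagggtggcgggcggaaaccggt
HSP90AA1, the second of 2 start sites, chr14:102087045-102087294, - strand: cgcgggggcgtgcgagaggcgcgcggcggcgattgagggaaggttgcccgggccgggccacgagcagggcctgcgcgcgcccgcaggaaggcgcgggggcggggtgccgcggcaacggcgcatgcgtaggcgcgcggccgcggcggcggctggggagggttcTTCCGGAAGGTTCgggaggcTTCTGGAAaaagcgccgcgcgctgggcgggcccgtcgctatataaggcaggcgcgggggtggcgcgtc
DNAJB1, the second of 3 start sites, chr19:14518398-14518647, - strand: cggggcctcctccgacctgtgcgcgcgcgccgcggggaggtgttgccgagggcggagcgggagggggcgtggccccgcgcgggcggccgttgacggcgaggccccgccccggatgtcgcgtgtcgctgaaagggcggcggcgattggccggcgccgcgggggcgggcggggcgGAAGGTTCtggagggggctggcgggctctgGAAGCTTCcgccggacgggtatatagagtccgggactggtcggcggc

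HSPA1A and HSPA1B each held 1 pair, 106 and 105 bases before the start, and HSPB8 held 1 at 88 bases before it and a further pair just past the start, outside the stretch shown. In all 3 genes that pair read GAATATTC, which was present in 0.313% of 35116 promoter windows of 300 bases. Such sharing was not particular to these genes. GAAGGTTC (in 0.413% of windows) was in HSPB1, HSPA8, HSP90AA1 and DNAJB1. TTCTGGAA (in 1.10%) was in HSPD1, HSP90AB1, HSPA8 and HSP90AA1. HSPA1A and HSPA1B are near copies, their levels and those of HSPB8 differed in pattern over the backgrounds, and a link between letters and levels was not tested. HSPA8 held 2 runs of 3 units, at 230 and 55 bases before the start, and HSP90AA1 held 1 such run at 88 bases and a further pair at 68 bases. DNAJB1 held pairs at 77 and 47 bases. The windows of HSPA1A and HSPA1B were 92.0% identical, each with 2 CCAAT boxes (CCAAT, in 34.6% of windows) and the TATA box TATAAA (in 11.5%).

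Over windows from 250 bases before to 50 after each start, the members had 16 windows. The motif of 3 units, GAANNTTCNNGAA or TTCNNGAANNTTC on either strand, matched in HSPA8, HSP90AA1, HSP90AB1 and HSPD1, which is 4 of 10 members, against 166 of 27305 genes (0.608%). The motif of 2 units, searched on both strands after the first result was seen and overlapping every match of the first, was found in 9 of 10 members against 16.2% of genes. HSPH1 was the member without these letters in its window. A match is a description of the sequence, and binding was not measured.

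**Figure D1:**
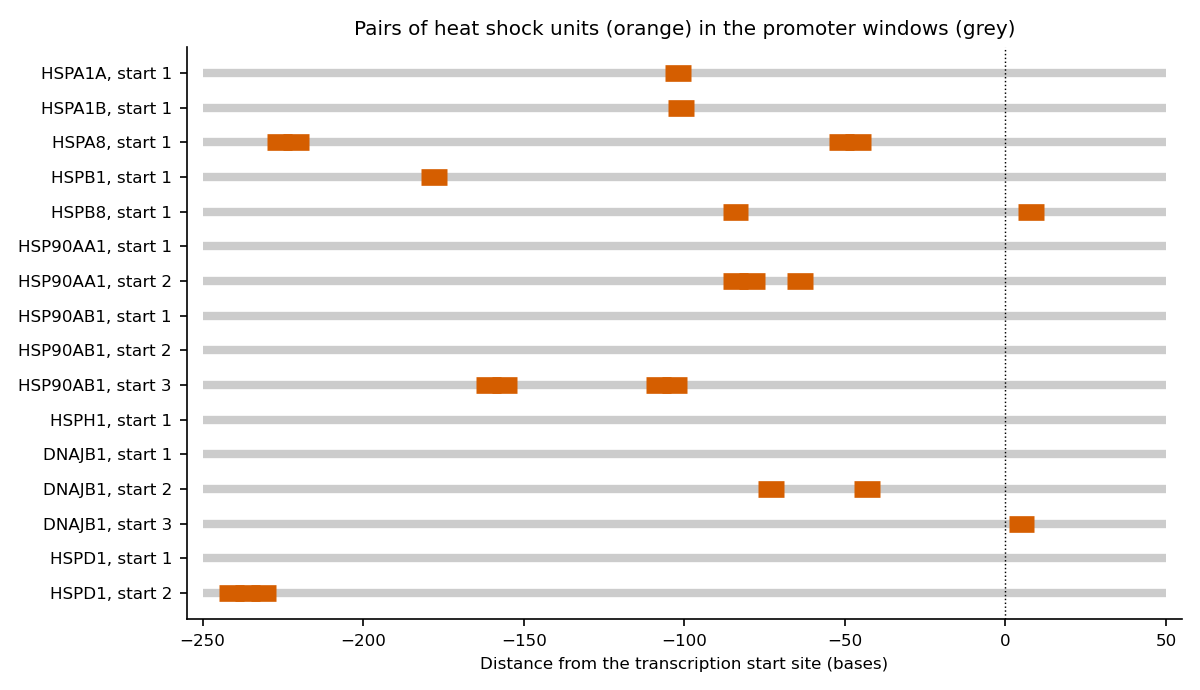
Positions of pairs of heat shock units (orange) in the 16 promoter windows (grey) of the 10 members, with the distance from the start site in bases on the x axis. Matches lie in 10 windows, and HSPA8, HSP90AA1, HSP90AB1 and HSPD1 have adjoining pairs that form runs of 3 or more units.

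The inducible HSP70 pair HSPA1A and HSPA1B, neighbouring genes on chromosome 6 whose proteins take up the load of misfolded protein under stress, was close to absent in KMS18. HSPA1A in KMS18 was 0.0249 FPKM with Vec, 0.0583 with Gapdh shRNA, 0.124 with CD28 shRNA and 0.147 with CD86 shRNA, on 2 to 10 reads per library. It was 3.05, 4.14, 2.76 and 2.49 FPKM in MM.1s in the same order, 8.58, 8.50, 7.32 and 7.51 in the Mcl1 line, and 5.63, 6.49, 6.01 and 5.53 in RPMI8226. The 4 backgrounds did not overlap for HSPA1A.

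HSPA1B followed the same order. Its 4 libraries were 0.0842 to 0.1496 FPKM in KMS18 (6 to 12 reads), 4.73 to 6.45 in MM.1s, 11.004 to 13.8 in the Mcl1 line and 9.06 to 9.97 in RPMI8226, again with no overlap. With the reads of a background's 4 libraries pooled, HSPA1A was 36.6 times higher in MM.1s than in KMS18 (95% exact interval 20.8 to 71.4) and 69.03 times higher in RPMI8226 than in KMS18 (39.3 to 134). For HSPA1B these ratios were 45.9 (28.9 to 77.8) and 76.8 (48.4 to 130). The intervals count read pairs and cover counting error only.

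The levels of this pair need care on 2 points. The deposited exon lengths were 12145 bases for HSPA1A and 12601 for HSPA1B, 4.89 and 4.998 times their transcripts in GENCODE 29 (2483 and 2521 bases). Across 21946 matched genes the median ratio of the deposited length to the exon union was 0.868, and 1.38% of genes were over 3. Per GENCODE transcript length, the pair came to 39.0 ± 3.2 (HSPA1A) and 61.2 ± 5.9 FPKM (HSPA1B) in the Mcl1 line, 28.9 ± 2.1 and 47.3 ± 2.0 in RPMI8226, 15.2 ± 3.5 and 28.4 ± 4.0 in MM.1s, and 0.434 ± 0.278 and 0.614 ± 0.151 in KMS18 (SD, n = 4). The ratio of a gene's FPKM between libraries does not depend on its length. Differences in log2(FPKM + 1) and filters on FPKM, used below, do. The transcripts of HSPA1A and HSPA1B were 95.0% identical over 2401 aligned bases, and 72.6% of the 50-base windows of HSPA1A were also in HSPA1B, so the split of reads between them is uncertain. Their summed FPKM was 0.143 to 0.274 in KMS18 and 7.22 to 10.6 in MM.1s.

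HSPA8, the constitutive HSP70 that works without stress, was high in every background. It was 406 FPKM with Vec, 388 with Gapdh shRNA, 360 with CD28 shRNA and 250.5 with CD86 shRNA in MM.1s. In the same order it was 271, 295, 258 and 210.3 in KMS18, 269.8, 264, 243 and 256 in the Mcl1 line, and 163, 148, 151 and 169 in RPMI8226. MM.1s, KMS18 and the Mcl1 line overlapped one another, and RPMI8226 lay below all other libraries. Its mean placed it 85th of 15862 genes above 0 in MM.1s and 287th of 16275 in RPMI8226. HSPA8 hosts the small nucleolar RNAs SNORD14C and SNORD14D and has 17 named pseudogenes in GENCODE 29, and the rule for reads with several matches is not given in the sources used here.

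HSPA8 exceeded the summed inducible pair, on the FPKM scale with deposited lengths, by 10.3 ± 0.85 times in RPMI8226, 12.8 ± 0.84 times in the Mcl1 line and 40.0 ± 5.0 times in MM.1s (SD, n = 4). In KMS18, where the pair rested on few reads, the ratio ranged from 806 to 2071. These ratios would be lower with transcript lengths for HSPA1A and HSPA1B.

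DNAJB1, the HSP40 partner that delivers clients to HSP70, was 43.5 ± 3.5 FPKM in the Mcl1 line, 39.9 ± 7.8 in KMS18, 36.7 ± 8.0 in MM.1s and 25.7 ± 1.8 in RPMI8226 (SD, n = 4). Its libraries were 45.9, 40.8, 28.9 and 31.3 FPKM with Vec, Gapdh, CD28 and CD86 shRNA in MM.1s, 48.4, 43.2, 40.2 and 42.4 in the Mcl1 line, 45.4, 45.4, 40.1 and 28.8 in KMS18, and 28.1, 24.1, 24.6 and 25.9 in RPMI8226. RPMI8226 was below the other backgrounds, which overlapped one another. Vec was the highest library in 4 of 4 backgrounds, though level with Gapdh shRNA in KMS18 (45.401 against 45.4005 FPKM). DNAJB1 overlaps TECR and MIR639 on the other strand, and whether reads were counted by strand is unknown.

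HSPH1, an HSP110 protein that exchanges the nucleotide of HSP70, was highest in KMS18. Its libraries in the same shRNA order were 51.6, 43.8, 42.6 and 41.6 FPKM in KMS18, 29.4, 24.5, 20.4 and 22.8 in MM.1s, 25.8, 25.2, 20.1 and 24.6 in the Mcl1 line, and 17.7, 19.3, 15.1 and 17.9 in RPMI8226. KMS18 lay above all others, MM.1s and the Mcl1 line overlapped, and RPMI8226 lay below both. The library with CD28 shRNA was the lowest in 3 of 4 backgrounds.

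The cytosolic HSP90 pair had a less variable and a more variable member. HSP90AB1, the constitutive form, overlapped between neighbours in the order of levels, from 485 ± 25 FPKM in MM.1s and 504 ± 26 in RPMI8226 to 565 ± 29 in the Mcl1 line and 629 ± 55 in KMS18 (SD, n = 4). KMS18 (561 FPKM or more) did not overlap RPMI8226 (at most 531) or MM.1s (at most 511). Its libraries were 696, 627, 633 and 561 FPKM with Vec, Gapdh, CD28 and CD86 shRNA in KMS18, 572, 524, 592 and 573 in the Mcl1 line, 506, 468, 511 and 531 in RPMI8226, and 511, 495, 484 and 451 in MM.1s. It was among the most abundant transcripts, 43rd to 53rd by mean FPKM in the 4 backgrounds. HSP90AA1, the stress-inducible form, was 496, 407, 451 and 368 FPKM with Vec, Gapdh, CD28 and CD86 shRNA in KMS18. It was 226, 198, 202 and 211 in the Mcl1 line, 159.97, 144, 131 and 151 in RPMI8226, and 142, 56.9, 105 and 114 in MM.1s. KMS18 stood above every other library, and Vec was the highest library of each background.

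The ratio of HSP90AB1 to HSP90AA1, on the FPKM scale, was 1.47 ± 0.07 in KMS18, 2.70 ± 0.17 in the Mcl1 line, 3.46 ± 0.33 in RPMI8226 and 5.21 ± 2.36 in MM.1s (SD, n = 4). In MM.1s it reached 8.70 in the library with Gapdh shRNA, where HSP90AA1 was lowest. The transcripts of both genes were 74.4% identical and shared none of their 50-base windows. HSP90AA1 overlaps WDR20 on the other strand.

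HSPB1, or HSP27, a small heat shock protein that binds unfolding proteins and actin, was graded over backgrounds that did not overlap. It was 386, 395, 413 and 300.1 FPKM with Vec, Gapdh, CD28 and CD86 shRNA in the Mcl1 line and 251, 219, 238 and 183 in RPMI8226. It was 48.6, 58.1, 45.7 and 42.1 in MM.1s, and 21.9, 21.8, 28.96 and 21.0 in KMS18. The library with CD86 shRNA was the lowest in 4 of 4 backgrounds.

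HSPB8, a small heat shock protein that works with the co-chaperone BAG3 and HSP70 in selective autophagy, was high in the Mcl1 line and low or absent elsewhere. It was 12.9, 18.7, 17.5 and 14.9 FPKM there with Vec, Gapdh, CD28 and CD86 shRNA, on 160 to 228 reads, and 0.279, 0.160, 0.713 and 0.581 in RPMI8226, on 2 to 8 reads. It had no read in any library of MM.1s or KMS18. With pooled reads HSPB8 was 37.5 times higher in the Mcl1 line than in RPMI8226 (95% exact interval 20.7 to 75.9). Set against a floor of 3 read pairs over the 4 libraries of a line, it was at least 126-fold higher than in MM.1s and at least 123-fold higher than in KMS18.

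HSPD1, or HSP60, the chaperonin of the mitochondrial matrix, varied little. Its backgrounds overlapped throughout, at 236 ± 29 FPKM in the Mcl1 line, 222 ± 25 in KMS18, 213 ± 23 in RPMI8226 and 202 ± 11 in MM.1s (SD, n = 4). The library with Gapdh shRNA was its lowest in 3 of 4 backgrounds, at 182 FPKM in RPMI8226, 194 in the Mcl1 line and 196 in KMS18. HSPD1 has 17 named pseudogenes and lies head to head with HSPE1, overlapping it on the other strand.

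**Figure D2:**
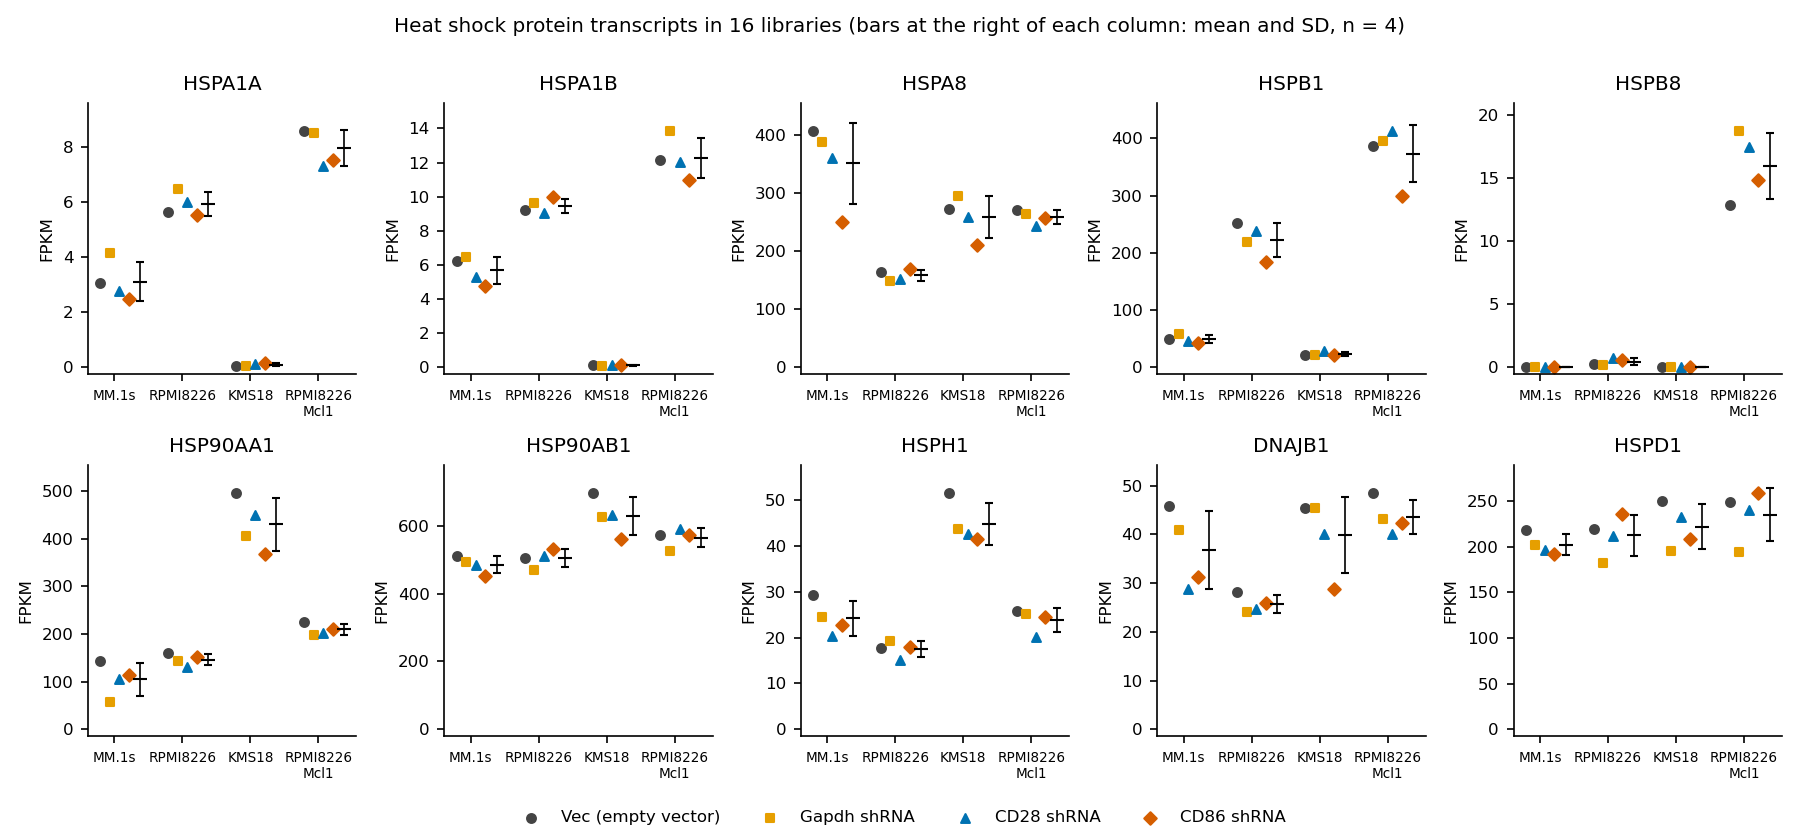
FPKM of the 10 members (y axis, 1 panel per gene, each from 0) in the 4 backgrounds (x axis), with 1 point per library coloured by shRNA and, at the right of each column, the mean and SD of the 4 libraries. HSPA1A and HSPA1B lie near 0 in KMS18, HSPB8 is above 12 FPKM in the Mcl1 line and below 1 elsewhere, and HSP90AA1 is highest in KMS18.

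Differences between the lines were tested with limma on log2(FPKM + 1), in a fit of 12 libraries, those without Mcl1 overexpression, with terms for line and shRNA. Genes needed a mean of at least 1 FPKM, 11316 passed, and p-values were Benjamini-Hochberg adjusted over all of them with a threshold of 0.05. This left 9 members, since HSPB8 was under the filter. The libraries of a line are single cultures with different hairpins, so these tests measure the spread between libraries and not between separate derivations.

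KMS18 was compared with MM.1s. HSP90AA1 (log2 difference 2.10, SE 0.17, limma adjusted p = 1.07e-06), HSPH1 (0.87) and HSP90AB1 (0.37) were higher in KMS18. HSPA1B (-2.56, SE 0.11, limma adjusted p = 7.58e-09), HSPA1A (-1.90), HSPB1 (-1.02) and HSPA8 (-0.43) were lower, and HSPD1 (0.13) and DNAJB1 (0.12) did not pass. The 3 higher and 4 lower members stood against 30.8% of all genes called higher and 34.5% called lower, shares of the same order as those of the members. Without the Vec libraries HSPA8 lost its call (-0.37, limma adjusted p = 0.0534). Of the epithelial genes, EPCAM was 0 FPKM in MM.1s and 159.8 to 231 in KMS18, while KRT8 and KRT18 were at most 0.591 in both lines. The part of these genes in the differences was not tested.

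KMS18 was next compared with RPMI8226. HSP90AA1 was 2.94 times higher by mean FPKM (log2 difference 1.55, SE 0.17, limma adjusted p = 9.13e-06). HSPH1 (1.31), HSPA8 (0.70), DNAJB1 (0.60) and HSP90AB1 (0.32) were also higher. HSPB1 was 9.52 times lower (-3.20, SE 0.11, limma adjusted p = 5.04e-10), HSPA1B (-3.22) and HSPA1A (-2.67) were lower, and HSPD1 (0.06) did not pass. This is 5 members higher and 3 lower, against 35.2% and 35.1% of all genes.

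RPMI8226 exceeded MM.1s in HSPB1 by 4.59 times (2.17, SE 0.11, limma adjusted p = 1.46e-08), and in HSPA1A (0.76), HSPA1B (0.66) and HSP90AA1 (0.55). The value of HSP90AA1, whose libraries overlapped between both lines, was 0.29 without the Gapdh libraries (limma adjusted p = 0.0321). RPMI8226 was lower in HSPA8 (-1.13, SE 0.12, limma adjusted p = 6.31e-06), DNAJB1 (-0.48) and HSPH1 (-0.44). HSPD1 (0.07) and HSP90AB1 (0.05) did not pass. The background was 33.2% of genes higher and 35.9% lower, against 4 and 3 of the 9 members tested. Epithelial genes summed to 90.5 to 115 FPKM in RPMI8226 against 0 to 0.326 in MM.1s, and the plasma cell marker SLAMF7 was 0.863 to 1.55 against 74.9 to 155; their part in these differences was not tested. Log2 differences of HSPA1A and HSPA1B are understated by the added 1 FPKM, and the pooled read ratios above carry no such term.

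**Figure D3:**
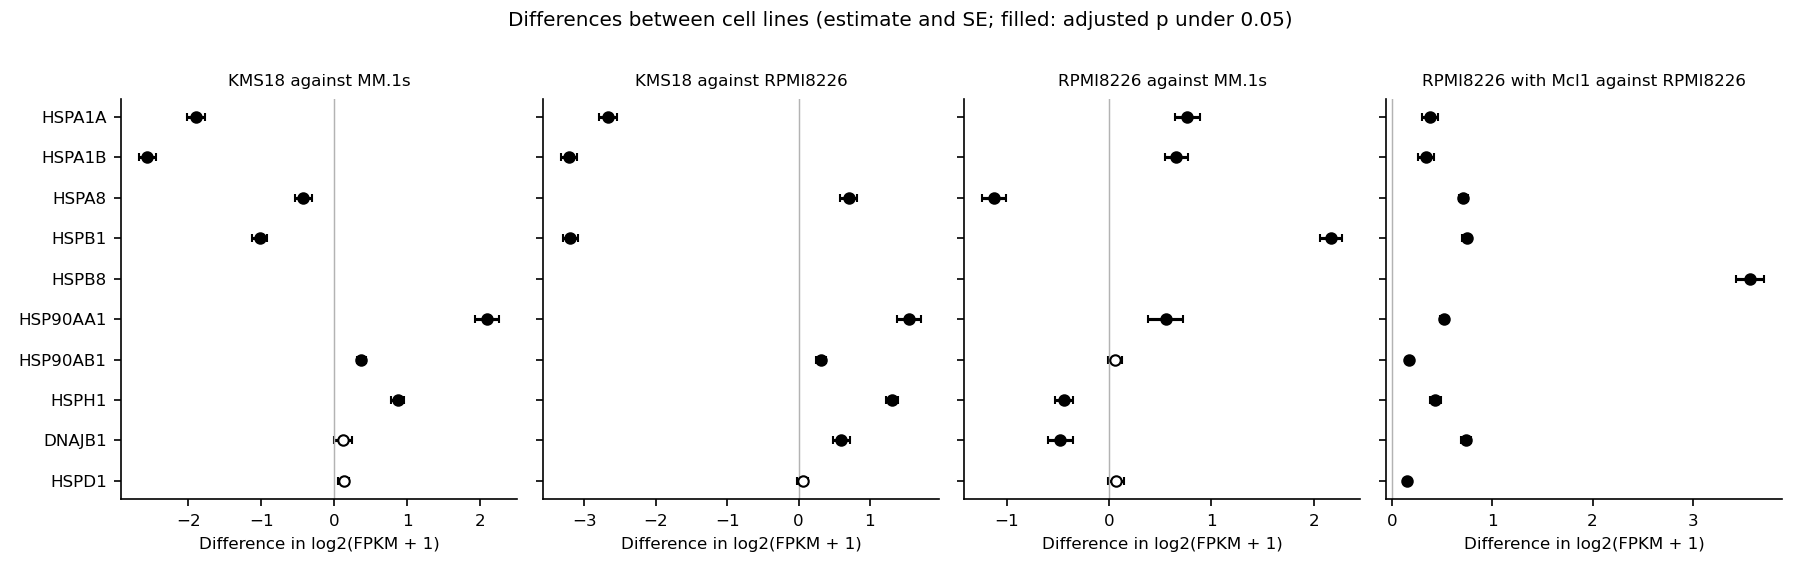
Difference in log2(FPKM + 1) of each member (y axis) in 4 comparisons of backgrounds (x axis, 1 panel each), as limma's estimate and SE, filled where the adjusted p was under 0.05. HSPA1A, HSPA1B and HSPB1 lie to the left and HSP90AA1 and HSPH1 to the right in both KMS18 panels, and all members lie to the right of 0 in the Mcl1 line; HSPB8 was under the filter in the first 3 panels.

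The Mcl1 line was compared with RPMI8226 over 8 libraries, with shRNA as a term and 3 residual degrees of freedom. The 9 members other than HSPB8 were all higher in the Mcl1 line, against 19.5% of 11024 genes called higher and 14.9% called lower. With median-of-ratios scaling the split of all genes was 1866 higher and 1892 lower, against 2146 and 1647, and all members were still called higher. HSPB1 (log2 difference 0.74, SE 0.04, limma adjusted p = 3.07e-05), DNAJB1 (0.74), HSPA8 (0.71) and HSP90AA1 (0.52) had the highest estimates, followed by HSPH1 (0.43), HSPA1A (0.38), HSPA1B (0.34), HSP90AB1 (0.16) and HSPD1 (0.15, SE 0.03, limma adjusted p = 0.0106). For each of the 9, the Mcl1 line was higher under each of the 4 vectors. The median of the 9 was 0.43, against 0.03 over all genes. HSPB8 (3.57, SE 0.14) passed the filter only through the Mcl1 line, where it is high, so its call adds nothing.

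By mean FPKM the Mcl1 line was 1.69 times RPMI8226 for DNAJB1, 1.68 times for HSPB1, 1.64 times for HSPA8 and 1.43 times for HSP90AA1. The ranges of HSP90AB1 and HSPD1 overlapped between both backgrounds, at 1.121 and 1.108 times. Without the Vec libraries the limma adjusted p was 0.0526 for HSPA1A, 0.0561 for HSPA1B and 0.0563 for HSPD1, and without the Gapdh libraries it was 0.0656 for HSPA1B. With no replicate block HSPD1 had an adjusted p of 0.350. Plasma cell markers summed to 631 to 863 FPKM in the Mcl1 line against 927 to 1222 in RPMI8226. Myeloid genes summed to 1.58 to 3.54 against 0.161 to 0.446, mostly ITGAM, with LYZ at 0 to 0.217 FPKM in the Mcl1 line and at 0 in RPMI8226. Epithelial genes summed to 125 to 177 against 90.5 to 115 FPKM, and the part of these genes in the result was not tested. Mcl1 overexpression and anything else that sets this derived line apart cannot be told apart.

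The hairpins were then compared with Vec in MM.1s, RPMI8226 and KMS18, to ask whether the chaperones follow CD28 or CD86. No member passed in any of these comparisons. The comparisons with Vec share their 3 Vec libraries, so their values are set side by side and not counted as repeats of one another.

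Under CD28 shRNA, 0 of 9 members passed, where limma called 2.83% of all genes. At an unadjusted p under 0.05 there were 2 members and 2240 of 11316 genes, and limma's voom on reads also called 0 members. HSPH1 was at 69.3%, 85.2% and 82.5% of Vec in MM.1s, RPMI8226 and KMS18, and at 77.8% in the Mcl1 line (log2 difference -0.33, SE 0.10, limma adjusted p = 0.0976). DNAJB1 was at 62.9%, 87.6% and 88.3% and, in the Mcl1 line, 82.9% (-0.34, SE 0.14, limma adjusted p = 0.213). Both were below Vec in 4 of 4 backgrounds, as were HSPA8, HSP90AA1 and HSPD1 under this hairpin. With the control Gapdh shRNA, DNAJB1, HSP90AA1, HSP90AB1 and HSPD1 were also below Vec in 4 of 4, DNAJB1 by almost nothing in KMS18. The other 7 tested members ran from -0.29 (HSP90AA1) to 0.07 (HSPB1), and the median of the 9 was -0.10 against -0.003 over all genes.

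Under CD86 shRNA, 0 of 9 members passed, where limma called 0.627% of genes. At an unadjusted p under 0.05 there were 2 members and 1453 genes, and voom called 0 members. DNAJB1 was at 68.2%, 92.2% and 63.5% of Vec in MM.1s, RPMI8226 and KMS18 (-0.43, SE 0.14, limma adjusted p = 0.231). The Mcl1 line had 87.5%. HSPA8 was at 61.7%, 103.5% and 77.5% (-0.34, SE 0.13, limma adjusted p = 0.324), with 95.0% for the Mcl1 line. All 9 estimates were below 0, with a median of -0.21 against 0.02 over all genes, of which 45.6% were below 0. Other settings turned some of the 9. With both controls HSP90AA1 was 0.0131 and HSPD1 0.00941, and with a pseudocount of 0.1 FPKM HSPA1A was 0.226. Without MM.1s, HSPA1A was 0.0712 and HSPA1B 0.0320.

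The 4 backgrounds differed in how many members lay below Vec under CD86 shRNA. Members below Vec numbered 9 of 9 in MM.1s and 8 of 9 in KMS18, with medians of -0.32 and -0.30, but 4 of 10 in RPMI8226 and 7 of 10 in the Mcl1 line, with medians of 0.03 and -0.09. The counts of 10 include HSPB8, which passed a filter over all 16 libraries only through its level in the Mcl1 line. It was above Vec in both, in RPMI8226 by 0.31 on 8 against 4 reads. Over all genes the medians in these backgrounds were between 0 and 0.03. The shares of genes below Vec were 43.1% in MM.1s, 49.0% in KMS18, 46.8% in RPMI8226 and 47.5% in the Mcl1 line. These counts over members were not tested between MM.1s, RPMI8226 and KMS18, and the interaction for the Mcl1 line is given further on.

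Under Gapdh shRNA, 0 of 9 members passed, where limma called 0% of genes. At an unadjusted p under 0.05 there were 2 members and 402 genes, and voom called 0 members. The median of the 9 was -0.10 against -0.009 over all genes, near the members' median of -0.10 under CD28 shRNA. HSP90AA1 had the lowest estimate (-0.58, SE 0.20, limma adjusted p = 1.00). It was at 39.9% of Vec in MM.1s but at 82.0%, 87.7% and 89.8% in KMS18, the Mcl1 line and RPMI8226, and without MM.1s the estimate was -0.22. HSPD1 was at 92.5%, 78.0% and 83.0% of Vec in MM.1s, KMS18 and RPMI8226 (-0.24, SE 0.09, limma adjusted p = 1.00). The Mcl1 line, which is not in this fit, had 77.9%.

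The CD86 hairpin was also set directly against the CD28 hairpin. In every background, CD86 itself was below Vec with the first and above it with the second. In this comparison too 0 of 9 members passed, where limma called 9.51% of genes. At an unadjusted p under 0.05 there were 1 member and 3022 genes, and voom called 0 members. The member was HSPB1 (-0.31, SE 0.12, limma adjusted p = 0.139), at 42.1 against 45.7 FPKM in MM.1s, 183 against 238 in RPMI8226, 21.0 against 28.96 in KMS18 and 300.1 against 413 in the Mcl1 line. HSPB1 was thus lower with the CD86 than with the CD28 hairpin in all 4 backgrounds. The other members lay between -0.22 (HSPA8) and 0.12 (HSPH1).

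The authors' deposited table gives fold changes for 14975 genes in these comparisons and calls none of the members at a false discovery rate under 0.05. In the authors' deposited table the lowest rates among members were 0.0882 for HSPH1 with CD28 shRNA, 0.0571 for DNAJB1 with CD86 shRNA, and 0.0847 for HSPB1 between both hairpins. At that threshold the authors' deposited table holds 806, 305 and 1545 genes.

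**Figure D4:**
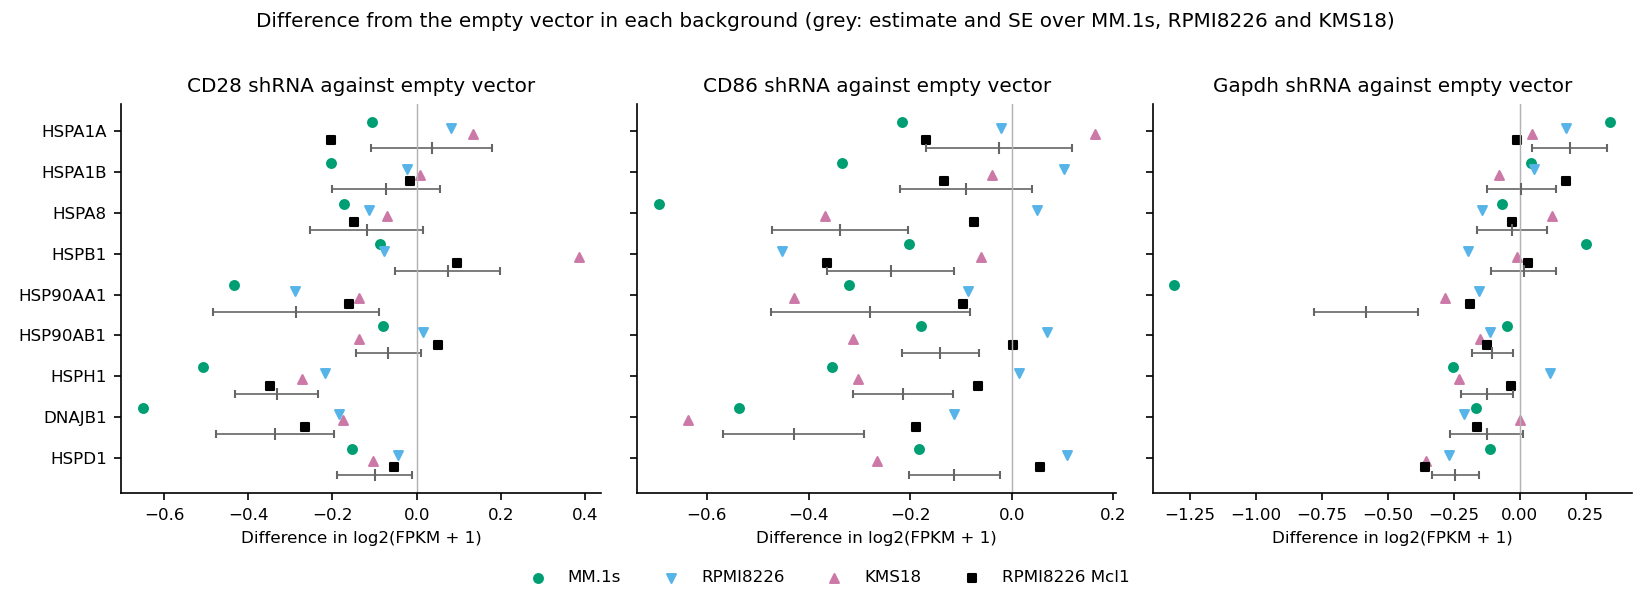
Difference from Vec in log2(FPKM + 1) (x axis) of the 9 tested members (y axis) under each hairpin, with 1 point per background and, in grey, limma's estimate and SE over MM.1s, RPMI8226 and KMS18. HSPH1, DNAJB1, HSPA8, HSP90AA1 and HSPD1 lie left of 0 in all backgrounds under CD28 shRNA. DNAJB1, HSP90AA1, HSP90AB1 and HSPD1 lie at or left of 0 in all backgrounds under Gapdh shRNA, where HSP90AA1 in MM.1s stands apart. The x axes differ.

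An interaction term, fitted to 11349 genes in 16 libraries, compared the response to each hairpin between the Mcl1 line and the mean of the other lines. No member passed for CD28, CD86 or Gapdh shRNA, and 0 members had an unadjusted p under 0.05 in each, while 371, 293 and 213 genes did. Limma called 0.00881%, 0% and 0% of genes, and voom called 0 members. The residual spread rests on MM.1s, RPMI8226 and KMS18, since the Mcl1 line has 1 library per hairpin, and the SE of the members' differences was 0.15 to 0.39.

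Other chaperone genes were read from lists that also were chosen with results of these data known. They held 41 cytosolic chaperones and co-chaperones (30 tested), 14 mitochondrial chaperones and proteases, 14 subunits of the chaperonin TRiC and of prefoldin, which fold actin and tubulin, and 6 heat shock factors and binding proteins (4 tested). Under CD28 shRNA, 2 of 14 TRiC and prefoldin genes fell, CCT5 (-0.37, SE 0.08, limma adjusted p = 0.0364) and CCT7 (-0.29, limma adjusted p = 0.0496), with 13 of 14 estimates below 0 and a median of -0.21. Over all genes 2.83% were called, and with no replicate block 0 were, these 2 included. The HSP90 co-chaperone CHORDC1 had an estimate of -0.62 and did not pass (limma adjusted p = 0.0823). None of the other lists had a call there, and no list had one under CD86 or Gapdh shRNA. With the control Gapdh shRNA, 12 of 14 TRiC and prefoldin estimates were also below 0 (median -0.11), and 8 of 14 with CD86 shRNA. Of the mitochondrial list 12, 9 and 13 of 14 were below 0 under CD28, CD86 and Gapdh shRNA. In the cytosolic list these were 21, 15 and 24 of 30. With the CD86 against the CD28 hairpin, CCT5 (0.32), PFDN1 (0.63) and the HSP70-like HSPA14 (0.40) were higher.

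In the Mcl1 line against RPMI8226, 10 of 30 tested cytosolic genes were higher and 2 lower, where 19.5% and 14.9% of all genes were. The 10 include the HSP110 relative HSPA4L (0.97, with 1.64 to 4.97 FPKM against 0.577 to 1.03). It passed the filter through the Mcl1 line, like HSPB8, and its call adds nothing to that count. BAG2, an inhibitor of the ubiquitin ligase CHIP (0.53), and the HSP90 co-chaperones CHORDC1 (0.42) and AHSA1 (0.37) led, and STIP1, which joins HSP70 to HSP90 (0.29), and BAG3 (0.30) were also higher. TRiC and prefoldin had 10 of 14 higher and 2 lower, led in size by PFDN1 (-0.37), VBP1 (0.35), CCT6A (0.33) and PFDN2 (0.28). Of the mitochondrial list 3 of 14 were higher, near the share of all genes, the protease LONP1 (0.52), the HSP40 DNAJA3 (0.33) and AFG3L2 (0.18). The HSPD1 cap HSPE1 was 22.1 ± 3.2 FPKM against 20.9 ± 1.7 and HSPA9, the mitochondrial HSP70, 105 ± 9 against 113 ± 8, neither past the threshold. HSF4 (0.60) and HSF1 (0.18, limma adjusted p = 0.0297) were higher and HSBP1, a binding protein of HSF1, lower (-0.62). The list medians were 0.13, 0.19, 0.03 and 0.08 for the cytosolic, TRiC, mitochondrial and factor lists, against 0.03 over all genes.

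**Figure D5:**
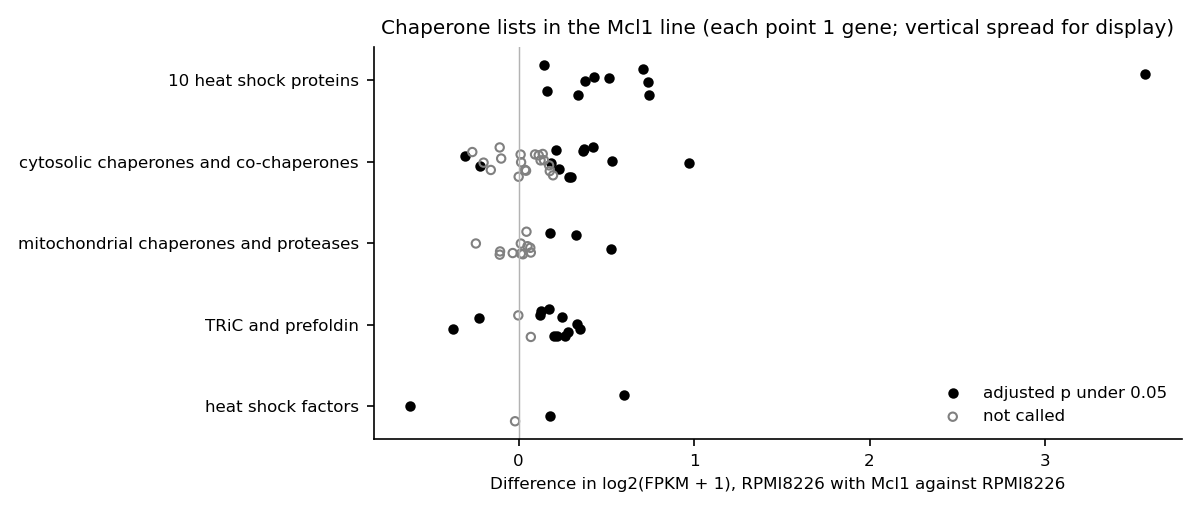
Difference in log2(FPKM + 1) between the Mcl1 line and RPMI8226 (x axis) for the 10 members and 4 lists of other chaperone genes (y axis), 1 point per tested gene, filled where limma's adjusted p was under 0.05. The members lie between 0.15 and 0.74 apart from HSPB8 at 3.57, and the lists spread to both sides of 0.

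Between lines, HSF1 was highest in KMS18, where HSPA1A and HSPA1B were near absent. It was 174 ± 6 FPKM in KMS18, 97.7 ± 6.7 in MM.1s and 69.9 ± 7.4 in RPMI8226 (SD, n = 4; 0.83 against MM.1s and 1.31 against RPMI8226, limma adjusted p = 5.74e-07 and 8.10e-09). HSPA9 was also higher in KMS18, at 160.0 ± 15.3 FPKM against 105 ± 7 in MM.1s. HSPA4L was 12.6 ± 1.5 FPKM in MM.1s and 13.3 ± 1.2 in KMS18 but 0.770 ± 0.198 in RPMI8226. CRYAB, another small heat shock protein, was at 0 in all libraries.

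The lists are read against the shares of all genes called in these comparisons, 30.8% to 35.2% higher and 34.5% to 35.9% lower, and several list counts were near them. KMS18 exceeded MM.1s in 10 of 14 TRiC and prefoldin genes, led by VBP1 (0.80), CCT5 (0.44) and CCT3 (0.39), with 0 lower. Of the cytosolic list 13 of 30 were higher and 7 lower, with SUGT1 (1.54), DNAJB6 (-1.34) and BAG2 (-1.32) the largest. Of the mitochondrial list 5 of 14 were higher and 4 lower. RPMI8226 against MM.1s split 11 higher and 8 lower in the cytosolic list and 3 higher and 5 lower in TRiC and prefoldin. KMS18 against RPMI8226 had 15 higher and 8 lower in the cytosolic list, where HSPA4L (3.01), BAG2 (-2.78) and PPID (1.36) were largest, and 9 higher and 1 lower in TRiC and prefoldin.

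Members were compared with one another and with other genes as deviations of log2(FPKM + 1) from the mean of each background, over the 16 libraries. These are descriptions, since libraries of 1 hairpin share that hairpin and each background shares its mean. Among the 8 members with a mean of at least 5 FPKM, Pearson's r ran from -0.30 (HSP90AA1 and HSPB1) to 0.78 (HSPD1 and HSP90AB1), with 0.75 for DNAJB1 and HSPA8 and 0.68 for DNAJB1 and HSPH1. Among 7671 genes, the closest to DNAJB1 were SHMT2, an enzyme of serine metabolism (0.94), DNAJA3 (0.91) and SAMD1 (0.90). The closest to HSPA8 were the amino acid transporter SLC1A4 (0.92), ZMPSTE24 and MIA3 (both 0.90), and to HSPB1 PRSS16 (0.91), STX5 and MYL12A (both 0.89).

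The closest to HSP90AA1 were RBBP7 (0.91), ABCF1 (0.90) and PUF60 (0.86), and to HSP90AB1 FUBP1 (0.89), TOE1 and ZNF101 (both 0.82). HSPH1 was closest to KCNA3, SNORD10 and IFNAR2 (0.89, 0.89 and 0.88), and HSPD1 to MDFIC (0.87), PSMA2 (0.86) and PHF6 (0.83). HSPA1B was closest to LRRC14 (0.89), FHOD1 (0.87) and ZNF207 (0.83).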

How the data were processed

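RNA-seq of 16 libraries was deposited as a table of FPKM per gene, and the submitters' processing notes name edgeR 3.12.1, R 3.2.2, Picard and TopHat2 2.0.13, without their roles. How strand and reads with several matches were treated is unknown. The authors' deposited fold changes are log2 values, with p-values and false discovery rates. FPKM gave whole reads in all libraries (within 0.02 of a read), and every library total was even, with 74.8% to 77.9% of genes of 1 to 20 reads at even numbers, so mates of a pair seem counted separately. Libraries held 4690942 to 7172402 reads in total.

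Log2(FPKM + 1) was tested with limma 3.58.1 (R 4.3.3, trended, two-sided), on genes whose mean was 1 FPKM or more, with Benjamini-Hochberg adjustment. Each cell line was a replicate block across the shRNAs, since libraries of 1 line deviate together from the shRNA means (r 0.898 to 0.970 in 18 pairs). Nothing states separate cultures, so p-values measure the spread between these libraries, which may be technical. No 2 libraries were identical, and 61 rows without a symbol were kept in the tests. The members and lists were chosen with earlier results of these data known. Named beyond the members were called list genes with the largest changes, a few fixed co-chaperones and the 3 genes most correlated with each member. Alternatives were another pseudocount and filter, median-of-ratios scaling, voom on reads, no block, the 2 groups alone, both controls, and each library group left out. The motif of 2 units was added after the motif of 3 was seen.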

Additional observations from a re-analysis of the deposited data

Results flagged for a closer look

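HSPB1 in KMS18 was 28.96 FPKM in the library with CD28 shRNA, while the other 3 libraries of that line lay between 21.0 and 21.9. The gap to the nearest library was 0.882 of the range, above Dixon's 95% limit for 4 samples. Of 38 groups of 4 libraries checked this way, 1 stood out, and chance does so for about 1 in 20.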

How the results depend on the processing

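Of 771 alternative values of the members' changes, 739 kept their direction and their side of the threshold, 6 lost a call and 26 changed sign. None of the 26 was called in the reported fit. None of the 46 alternative fits of the hairpin comparisons called a member.

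With voom on reads HSPB1 was -0.00289 under CD28 and -0.0406 under Gapdh shRNA, and HSP90AA1 -0.0304 between the CD86 and CD28 hairpins, as it was with median-of-ratios scaling (-0.0330). With both controls, HSPA1A was -0.0582, HSP90AA1 0.00502 and HSPD1 0.0223 under CD28 shRNA, and HSP90AA1 0.0131 and HSPD1 0.00941 under CD86 shRNA. With a pseudocount of 0.1, HSPA1A was 0.226 under CD86 and HSPA1B -0.0993 under Gapdh shRNA.

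With 1 line left out, HSPA1A ran from -0.0127 to 0.107 and HSPB1 from -0.0827 to 0.153 under CD28 shRNA, and HSPA1A from -0.119 to 0.0712 and HSPA1B from -0.187 to 0.0320 under CD86 shRNA. Under Gapdh shRNA, HSPA1B ran from -0.0170 to 0.0483, HSPB1 from -0.104 to 0.121 and HSPA8 from -0.104 to 0.0268. Between hairpins, HSP90AA1 ran from -0.0894 to 0.158, HSPA1B from -0.0887 to 0.0398, HSPD1 from -0.0963 to 0.0619 and DNAJB1 from -0.196 to 0.0912. With 1 shRNA left out, HSP90AB1 ran from -0.00482 to 0.0994 and HSPD1 from -0.0116 to 0.137 between RPMI8226 and MM.1s.

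With no replicate block, HSPD1 in the Mcl1 line kept its difference of 0.15 and lost its call (limma adjusted p = 0.350), no other member changed its call, and all hairpin comparisons called 0 genes (204, 83, 15 and 350 genes at an unadjusted p under 0.05 for CD28, CD86, Gapdh and CD86 against CD28). With 1 line left out, counts over all genes went from 320 to between 33 and 132 under CD28 shRNA, from 71 to between 0 and 9 under CD86 shRNA, and from 1076 to between 137 and 525 between hairpins. With no filter these counts were 147, 30 and 605, with the 2 groups alone 89, 7 and 10, with voom 616, 244 and 1497, and with both controls 583 and 205. The filter at 5 FPKM gave 109 for CD86 shRNA. In the Mcl1 line, 3793 genes became 2459 with no block. Depth limits HSPA1A and HSPA1B in KMS18 and HSPB8 in RPMI8226, which rest on at most 12 reads per library.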
